A study of Mus musculus with 4 samples.

Results

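The chondrogenic SOX factors and the non-collagen matrix of cartilage were followed in mouse C3H10T1/2 cells after DNMT1 depletion and early osteoblast (OB) induction. The 10 genes were the transcription factors Sox9, Sox5 and Sox6, the matrix proteins Acan, Matn2, Matn3, Matn4 and Comp, the secreted regulator Cnmd and the link protein Hapln1. They were picked by gene symbol, and all 10 were found among the 54532 genes of the deposited count table. The expression filter, a mean CPM (count scaled to a common library size) of 1 or more over the libraries, was passed by 13233 genes and by 6 of the 10 (Sox9, Matn2, Matn3, Matn4, Comp and Cnmd). Sox9, Matn2 and Matn4 had a CPM of at least 1 in every library, whereas Matn3, Comp and Cnmd passed only through the libraries in which they were high. Sox5, Sox6, Acan and Hapln1 were below the filter and are given as counts.

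SOX9 is the transcription factor that starts and maintains the chondrocyte program, and SOX5 and SOX6, close relatives without an activation domain of their own, act together with it at cartilage enhancers. Cartilage matrix is built on type II collagen fibrils and on aggrecan (Acan), a large proteoglycan that is held on hyaluronan by the link protein HAPLN1, with matrilins and COMP joining these networks to each other. Chondromodulin (Cnmd) is secreted by cartilage and inhibits blood vessel growth.

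C3H10T1/2 is a mesenchymal stem cell line from C3H mouse embryos that can take up bone, cartilage or fat fates, so the values are those of a cell line in culture and not of cartilage. Transfection lasted 48 h and used either a control siRNA or DNMT1 siRNA, which targets the methyltransferase that copies DNA methylation to the new strand. The cells then stayed untreated or were kept for 3 days in OB medium with 50 µM ascorbic acid, 10 mM glycerophosphate and dexamethasone. The study describes its RNA as taken before or after these 3 days, and states no culture of equal length without OB medium. In every OB contrast, the medium and the added time in culture therefore cannot be told apart. The resulting groups are called control (control siRNA, untreated), siDNMT1 (DNMT1 siRNA, untreated), OB (control siRNA, induced) and siDNMT1_OB (DNMT1 siRNA, induced). Each group held 1 library of poly(A) RNA, so no difference between groups has a replicate check and intervals cover counting error only.

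Dnmt1 itself was read first as a check of the labels. It had 7195 counts (control), 3375 (siDNMT1), 1931 (OB) and 2492 (siDNMT1_OB). The log2 fold change with DNMT1 siRNA was −1.01 in untreated cells but 0.13 (95% counting interval 0.04 to 0.21) in induced cells, and that with OB induction alone was −1.63. The library labelled siDNMT1_OB thus held no less Dnmt1 mRNA than its OB control, and every direction below that rests on the library labelled siDNMT1_OB carries that limit. Total counts lay between 22296046 and 27367792 per library. Of 9 mesenchymal markers, 8 passed the filter, with summed CPM from 7647 in control to 10600 in siDNMT1_OB. Vim made up most of that sum, at 5506 and 8356 CPM in those libraries. The other markers differed in opposite directions, with Prrx1 at 1475 and 1170 CPM and Pdgfra at 127.5 and 413.4 CPM. Of 7 osteoblast markers, 3 passed (Runx2, Spp1 and Dmp1), and the summed CPM lay between 261 in OB and 627 in control. Most of that sum was Spp1, at 187 CPM in OB and 548 in control. Runx2 lay between 72.7 CPM in OB and 96.0 in siDNMT1. Alpl and Bglap had at most 3 counts in any library, OB libraries included. Ibsp had 1, 3, 6 and 17 counts in control, siDNMT1, OB and siDNMT1_OB, and Sp7 had at most 8 in any library. Of 6 tendon markers 4 passed, with sums from 26.1 to 34.5 CPM made of genes that differed in opposite directions, given beside the counts past the fold, and Thbs4 at 0 or 1 count, and of 6 adipocyte markers 4 passed, with sums of 41.2 and 45.1 CPM in control and siDNMT1, of 101 and 92.9 CPM in OB and siDNMT1_OB, and Plin1 at 0. Leukocyte, endothelial and epithelial markers summed to at most 2.70, 0.40 and 1.03 CPM, and Epcam was at 0. In bulk RNA, fewer cells of a type and less RNA per cell cannot be told apart.

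The genes lie on 10 stretches of 9 chromosomes of build GRCm38 (mm10), and each deposited position matched GENCODE release M21. Sox9 (ENSMUSG00000000567) is at chr11:112782224-112787760, Sox5 (ENSMUSG00000041540) at chr6:143828425-144781977 and Sox6 (ENSMUSG00000051910) at chr7:115470872-116038796. Acan is at chr7:79053483-79115099, Matn2 at chr15:34306677-34436273, Matn3 at chr12:8947929-8972028 and Matn4 at chr2:164389393-164405160. Comp is at chr8:70373558-70382066, Cnmd at chr14:79637690-79662170 and Hapln1 at chr13:89539796-89611652. The kit used does not mark strand, and 3 of the genes share exon bases with a gene on the opposite strand, so that reads there cannot be told apart. Matn4 shares 149 bases (2.88% of its exon bases) with Rbpjl, Matn2 shares 70 bases (1.12%) with 9430069I07Rik, and Sox5 shares 1330 bases (9.25%) with Sox5os1, which had 0 counts in each library.

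DNMT1 acts on CpG dinucleotides, so the CpG content of the promoters is given as sequence context. DNA methylation itself was not analysed here. RefSeq promoter windows (GRCm38.p6, 250 bases before to 50 bases after a start site) were matched for Sox5, Sox6, Acan, Matn3, Matn4, Hapln1 and Cnmd, that is for 7 of the 10 genes. Sox9, Matn2 and Comp had no entry. Over all 32851 windows of 27025 genes, the quartiles of the CpG count were 3, 7 and 20. The members spanned that range. The Cnmd window held 1 CpG, with 5.43% of windows holding fewer, and the Sox5 and Hapln1 windows held 3 each. The start site of the Hapln1 window lay 840 bases from the nearest GENCODE start, and its 250 upstream bases were all in annotated exons. Sox6 had windows for 6 start sites with 2 to 13 CpG, Matn4 windows for 2 start sites with 9 and 19, and Matn3 1 window with 15. A Sox6 start site with 2 CpG lay 23101 bases from the nearest GENCODE start. The Matn4 start site with 19 CpG lay 204 bases away, with 197 of its 250 upstream bases in annotated exons. For the Matn4 window with 9 CpG, all 250 were in annotated exons. The Acan window held 31, more than 89.4% of windows, and its start site lay 257 bases from the nearest GENCODE start. A relation of CpG content to detection was not tested. Stretches upstream of the annotated exons are printed for 4 genes, chosen to show the range of CpG content. They run 5′ to 3′ along the gene's strand with each CpG in capitals, at chr7:79052976-79053225 (plus strand, 26 CpG) for Acan, chr7:116038797-116038994 (minus strand, 4 CpG) for the outermost start of Sox6, chr12:8947679-8947928 (plus strand, 14 CpG) for Matn3 and chr14:79662184-79662433 (minus strand, 0 CpG) for Cnmd.
Acan: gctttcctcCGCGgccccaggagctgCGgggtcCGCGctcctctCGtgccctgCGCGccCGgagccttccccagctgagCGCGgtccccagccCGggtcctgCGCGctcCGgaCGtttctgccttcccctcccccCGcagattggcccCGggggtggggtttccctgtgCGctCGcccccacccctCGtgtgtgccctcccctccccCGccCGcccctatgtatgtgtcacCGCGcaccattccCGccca
Sox6: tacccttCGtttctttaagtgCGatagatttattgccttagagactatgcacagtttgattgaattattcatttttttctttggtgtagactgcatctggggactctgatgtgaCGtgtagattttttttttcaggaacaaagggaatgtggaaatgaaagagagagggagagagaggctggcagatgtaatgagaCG
Matn3: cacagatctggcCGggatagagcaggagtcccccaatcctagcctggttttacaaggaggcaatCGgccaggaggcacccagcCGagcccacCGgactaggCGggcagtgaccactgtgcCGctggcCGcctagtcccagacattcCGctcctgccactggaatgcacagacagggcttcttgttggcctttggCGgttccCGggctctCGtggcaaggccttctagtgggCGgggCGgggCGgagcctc
Cnmd: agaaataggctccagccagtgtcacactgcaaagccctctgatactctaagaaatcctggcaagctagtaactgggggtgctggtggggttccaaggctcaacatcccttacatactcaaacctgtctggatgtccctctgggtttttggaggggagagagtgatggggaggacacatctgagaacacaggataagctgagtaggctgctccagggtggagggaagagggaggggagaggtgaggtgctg

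**Figure D1:**
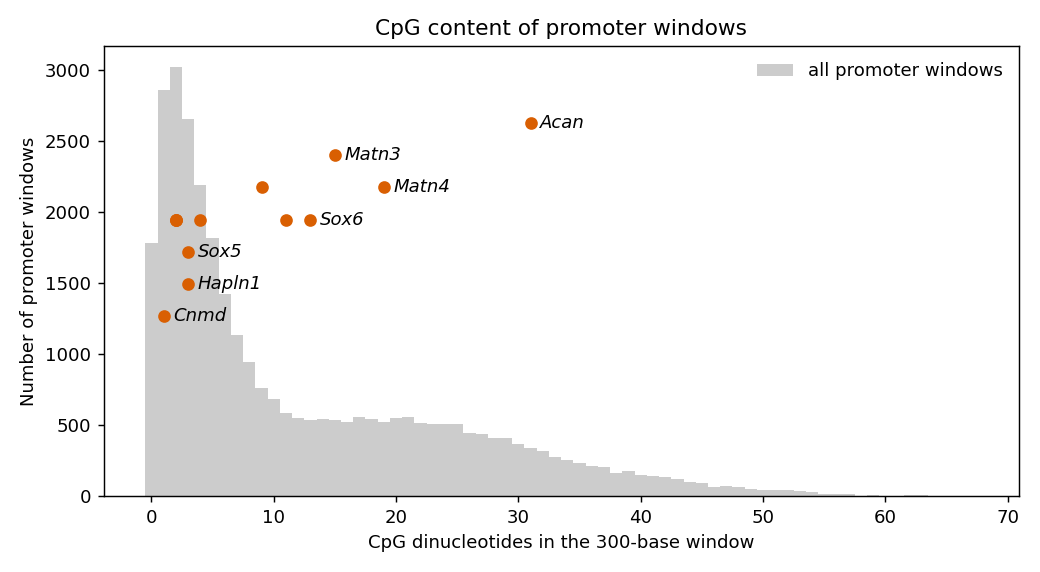
Number of CpG dinucleotides in each 300-base RefSeq promoter window (x axis) against the number of windows with that count (y axis, gray bars, 32851 windows). Orange points mark the windows of the 7 matched genes, 1 point a start site with coinciding points drawn once and their height without meaning, and range from 1 CpG at Cnmd to 31 at Acan.

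SOX proteins bind short sequences around ACAAAG and ACAATG, and these letters were searched on both strands of each window, where the motifs differ in 1 letter and cannot match the same bases on the same strand. ACAAAG was present in 18.7% of all windows, ACAATG in 12.6% and either in 28.6%. Among the members, the Sox5 window held 1 ACAATG and 5 of the 6 Sox6 windows held at least 1 match. No match was found in the windows of Matn3, Matn4, Cnmd, Acan and Hapln1, which says only that these letters are not in these windows.

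The 10 genes fell into 3 classes by level. Sox9 and Matn2 were abundant, at 63.3 to 429 CPM. Matn4, Comp, Matn3 and Cnmd were low in control, at 1.62 CPM or less, and had at least 2.50 CPM in both induced libraries. Sox5 and Sox6 did not exceed 1.16 CPM, and Acan and Hapln1 had at most 2 counts in any library. Per kilobase of exon, which is the scale on which genes can be compared, Sox9 was the highest of the 10 in control (22.7 CPM per kb), siDNMT1 (38.1) and siDNMT1_OB (56.2), and Matn2 was the highest in OB (68.6, against 47.4 for Sox9). Matn4, Comp and Matn3 followed in control at 0.31, 0.34 and 0.24 CPM per kb, with counting intervals that overlapped. In OB, Matn4 at 3.14 and Comp at 2.24 were separate from each other and from Cnmd at 1.39 and Matn3 at 1.17, which overlapped. In siDNMT1_OB, Matn4 stood apart at 5.92 CPM per kb (interval 5.52 to 6.33), while Matn3, Cnmd and Comp at 1.36, 1.36 and 1.33 were not separated by their intervals.

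**Figure D2:**
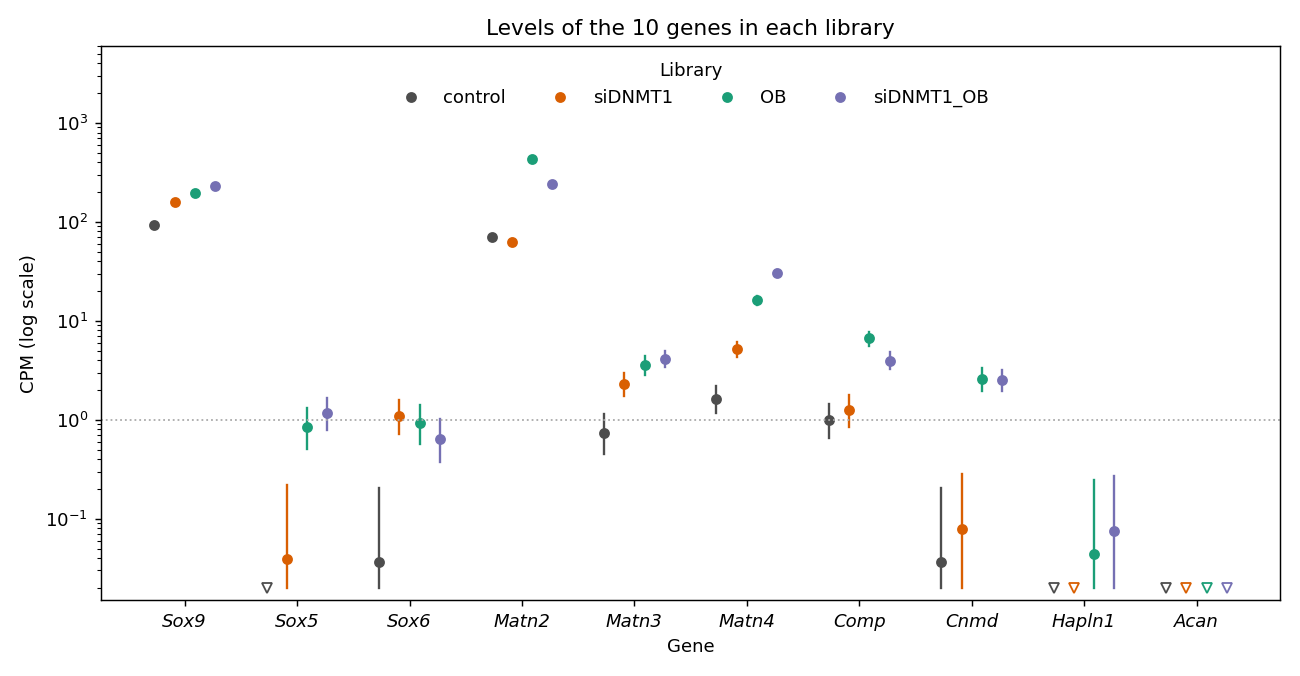
CPM (log axis) of the 10 genes in the 4 libraries, with points for the libraries, vertical lines for exact 95% counting intervals (cut at the foot of the axis), open triangles at the foot of the axis for libraries with 0 counts, and a dotted line at 1 CPM. Sox9 and Matn2 lie at 63.3 CPM or higher in each library, Cnmd is seen above 1 CPM only in the OB and siDNMT1_OB libraries, and Acan has 0 counts throughout.

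Sox9, the master regulator of the group, was higher in each of the treated libraries than in control. It had 2549 counts (control), 4038 (siDNMT1), 4429 (OB) and 6215 (siDNMT1_OB), or 94.0, 158, 196 and 232 CPM. The lowest level was in control and the highest in siDNMT1_OB, and no 2 intervals overlapped. The log2 fold change with DNMT1 siRNA was 0.75 (0.67 to 0.82) in untreated and 0.25 (0.19 to 0.30) in induced cells. That with OB induction was 1.06 (0.99 to 1.13) with control siRNA and 0.56 (0.50 to 0.62) with DNMT1 siRNA. Of these, only OB against control exceeded the fold threshold of the study, a log2 fold change of 1 in size. Among the 13233 filtered genes, ordered by CPM per kb, Sox9 stood at places 2341, 1246, 948 and 807 in control, siDNMT1, OB and siDNMT1_OB.

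Sox6 and Sox5, the SOXD partners of Sox9, were near or below 1 CPM and differed from each other in which libraries held their reads. Sox6 had 1 count (control), 28 (siDNMT1), 21 (OB) and 17 (siDNMT1_OB). It was therefore nearly undetected only in control, and the other 3 libraries had overlapping intervals. The ratio of siDNMT1 to control was 29.6 (4.90 to 1212) and that of OB to control 25.2 (4.05 to 1042). With 1 count as the denominator these ratios are loose. Between siDNMT1_OB and OB the log2 fold change of Sox6 was −0.50 (−1.56 to 0.45), and between siDNMT1_OB and siDNMT1 it was −0.71 (−1.74 to 0.14), so neither difference could be detected at this depth. Sox5 had 0 counts (control), 1 (siDNMT1), 19 (OB) and 31 (siDNMT1_OB). Its reads came almost entirely from the induced libraries, in contrast with Sox6, which was also present in siDNMT1. Set against a floor of 3 counts for control, Sox5 was at least 7.60-fold higher in OB, and the counting interval of that ratio, which also covers the error of the 19 counts, began at 5.60. The ratio of siDNMT1_OB to siDNMT1 was 29.7, with an interval starting at 4.95. The log2 fold change with DNMT1 siRNA in induced cells was 0.43 (−0.41 to 1.37), within counting error. Within a library, where no scaling is needed, Sox5 made up 1 of 29 counts of Sox5 and Sox6 in siDNMT1 (3.45%, exact 95% binomial interval 0.09 to 17.8), 19 of 40 in OB (47.5%, 31.5 to 63.9) and 31 of 48 in siDNMT1_OB (64.6%, 49.5 to 77.8). Of this pair, the reads of untreated DNMT1-depleted cells were thus nearly all Sox6, and those of induced cells were a mixture.

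The 3 matrilins, adaptor proteins that link collagen fibrils and proteoglycans, were each higher after OB induction, and differed in direction with DNMT1 siRNA. Matn2, the widely expressed member, had 1918 counts (control), 1622 (siDNMT1), 9710 (OB) and 6488 (siDNMT1_OB), or 70.7, 63.3, 429 and 242.5 CPM. It was highest in OB, with both induced libraries above both untreated ones. Its log2 fold change with OB induction was 2.60 (2.53 to 2.67) on control siRNA and 1.94 (1.86 to 2.02) on DNMT1 siRNA, whereas that with DNMT1 siRNA was −0.16 (−0.26 to −0.06) in untreated and −0.82 (−0.87 to −0.78) in induced cells. Matn2 moved from place 4529 per kb among the filtered genes in control to place 641 in OB and 1236 in siDNMT1_OB.

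Matn3, a cartilage matrilin, had 20 counts (control), 59 (siDNMT1), 80 (OB) and 110 (siDNMT1_OB), or 0.74, 2.30, 3.54 and 4.11 CPM. The control library lay below the others, and of those the siDNMT1 and OB intervals overlapped, as did those of OB and siDNMT1_OB. With DNMT1 siRNA the log2 fold change was 1.55 (0.89 to 2.45) in untreated cells, past the fold, and 0.21 (−0.21 to 0.65) in induced cells, within counting error. With OB induction it was 2.15 (1.54 to 3.05) on control siRNA and 0.81 (0.37 to 1.32) on DNMT1 siRNA, the latter not past the fold.

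Matn4, which is found in a broad set of connective tissues, showed the widest range of the matrilins as a ratio of highest to lowest CPM. In CPM itself the range of Matn2 was wider. It had 44 counts (control), 132 (siDNMT1), 367 (OB) and 819 (siDNMT1_OB), or 1.62, 5.15, 16.2 and 30.6 CPM. No intervals overlapped, and each treatment on its own and the combination lay above control. DNMT1 siRNA gave a log2 fold change of 1.62 (1.17 to 2.19) in untreated and 0.91 (0.74 to 1.10) in induced cells. OB induction gave 3.26 (2.87 to 3.81) on control siRNA and 2.55 (2.30 to 2.85) on DNMT1 siRNA. Rbpjl, which overlaps Matn4 on the opposite strand, had 2, 6, 25 and 80 counts in the same libraries, and its part in the Matn4 counts was not tested.

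As a share of the summed CPM per kb of the 3 matrilins, Matn2 made up 95.3% in control and 94.1% in OB, and 85.2% in siDNMT1 and 84.2% in siDNMT1_OB. The Matn4 share was 2.65%, 8.39%, 4.30% and 12.9% in control, siDNMT1, OB and siDNMT1_OB. The Matn3 share was 2.07%, 6.44%, 1.61% and 2.97% in the same order. In raw counts of Matn2 and Matn4 alone, Matn4 took 44 of 1962 in control (2.24%, 1.63 to 3.00) against 132 of 1754 in siDNMT1 (7.53%, 6.33 to 8.86), and 367 of 10077 in OB against 819 of 7307 in siDNMT1_OB (3.64% and 11.2%). The lower Matn2 share with DNMT1 siRNA came with higher Matn4 and lower Matn2 in both states, the Matn2 log2 fold change being −0.16 in untreated and −0.82 in induced cells. The Matn3 share was higher with DNMT1 siRNA as well, at 6.44% against 2.07% in untreated and 2.97% against 1.61% in induced cells.

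**Figure D3:**
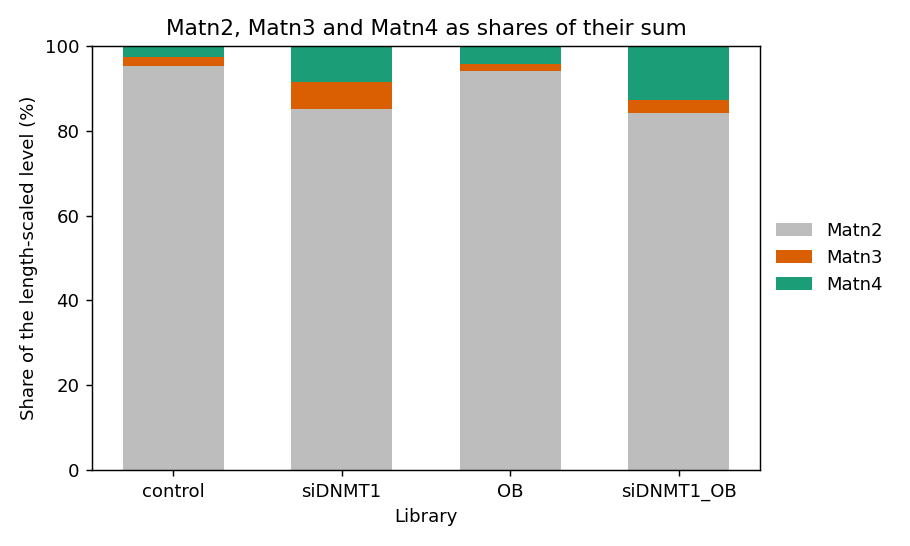
Shares (%) of Matn2, Matn3 and Matn4 in their summed CPM per kb, with 1 stacked bar for each library. Matn2 fills 95.3% and 94.1% of the bar in control and OB, and 85.2% and 84.2% in siDNMT1 and siDNMT1_OB.

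Comp, a pentameric protein of the thrombospondin family that binds collagen fibrils, had 27 counts (control), 32 (siDNMT1), 150 (OB) and 106 (siDNMT1_OB), or 1.00, 1.25, 6.63 and 3.96 CPM. It was highest in OB, and both untreated libraries lay below both induced ones. The log2 fold change with OB induction was 2.64 (2.14 to 3.38) on control siRNA and 1.61 (1.08 to 2.28) on DNMT1 siRNA. With DNMT1 siRNA it was 0.31 (−0.46 to 1.12) in untreated cells, within counting error, and −0.73 (−1.12 to −0.38) in induced cells.

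Cnmd, the angiogenesis inhibitor whose upstream stretch holds no CpG, was almost confined to the induced libraries, with 1 count (control), 2 (siDNMT1), 58 (OB) and 67 (siDNMT1_OB). The ratio of OB to control was 69.6 (12.0 to 2794) and that of siDNMT1_OB to siDNMT1 32.1 (8.54 to 270.3). Between siDNMT1_OB and OB, at 2.50 and 2.57 CPM, the log2 fold change was −0.03 (−0.56 to 0.50), and no fold is given in untreated cells because both counts were under the floor of 3.

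Acan and Hapln1, the core of the aggrecan aggregate, were not detectable at this depth. Acan had 0 counts in each of the 4 libraries, which allows up to 0.111, 0.117, 0.133 and 0.112 CPM in control, siDNMT1, OB and siDNMT1_OB at the floor of 3 counts. Hapln1 had 0 counts in control and siDNMT1, 1 in OB and 2 in siDNMT1_OB. In these libraries the Sox9 levels above thus came with no reads of the major cartilage proteoglycan.

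**Figure D4:**
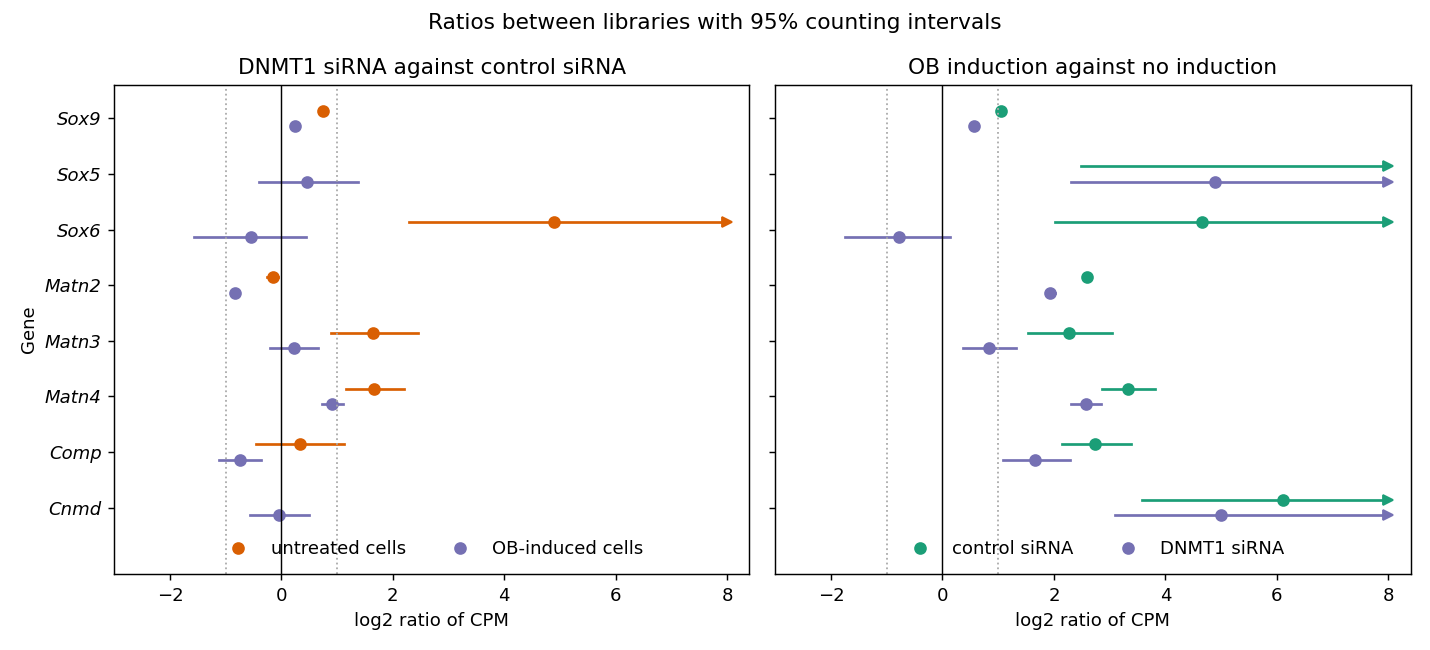
Log2 ratio of CPM, without a prior count, for DNMT1 siRNA against control siRNA (left) and OB induction against no induction (right), with points for the ratios, horizontal lines for 95% counting intervals, arrows where the interval runs beyond the axis, and dotted lines at −1 and 1. In the right panel the ratios lie above 0 with 1 exception, Sox6 with DNMT1 siRNA, while in the left panel Matn3, Matn4 and Sox6 exceed 1 in untreated cells and no gene exceeds 1 in induced cells.

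Counted over the 6 filtered members, OB induction was the contrast with most genes past the fold. In OB against control, 6 of 6 were higher and 0 lower, where the background over all filtered genes was 10.6% higher and 7.1% lower. With DNMT1 siRNA (the library labelled siDNMT1_OB against siDNMT1), 4 of 6 were higher (Matn2, Matn4, Comp and Cnmd) and 0 lower, where the background was 6.83% and 2.71%. For DNMT1 siRNA in untreated cells, 2 of 6 were higher (Matn3 and Matn4) and 0 lower, against a background of 1.97% and 1.37%. For DNMT1 siRNA in induced cells, 0 of 6 were past the fold in either direction, against a background of 2.36% higher and 1.37% lower. Markers of mesenchymal and other cell types were past the fold in the same contrasts. For DNMT1 siRNA in untreated cells these were 2 of 4 filtered adipocyte markers (Cebpa, 1.34, and Lpl, 1.24), 2 of 4 filtered tendon markers (Tnmd, 1.52, and Fmod, 1.23) and 1 of 3 filtered osteoblast markers (Spp1, −1.41). In OB against control, 2 of 3 filtered osteoblast markers were lower (Dmp1, −2.81, and Spp1, −1.55), and of the tendon markers Tnmd was higher (1.95) and Fmod (−1.99) and Scx (−1.44) were lower, while 1 of 8 filtered mesenchymal markers was higher (Pdgfra, 2.47). In siDNMT1_OB against siDNMT1, Pdgfra (1.56), the mesenchymal marker Thy1 (1.22) and Tnmd (1.56) were higher and Fmod (−1.89) was lower. In siDNMT1_OB against OB, where 0 members were past the fold, Dmp1 (1.76), Fmod (1.33) and Tnmd (1.13) were higher. The summed adipocyte markers were higher in both induced libraries (101 and 92.9 CPM against 41.2 and 45.1), and 3 of the 4 filtered markers were past the fold in OB against control. Fabp4, a fatty acid carrier, had 111, 72, 963 and 1305 counts in control, siDNMT1, OB and siDNMT1_OB, with log2 fold changes of 3.36 in OB against control and 4.08 in siDNMT1_OB against siDNMT1. The lipase Lpl (2.27) and the adipogenic factor Cebpa (1.87) were past the fold in OB against control only among the OB contrasts, Plin1 was at 0 and Adipoq had no more than 2 counts. The part of these markers in the members' values was not tested. Of the members, the 3 that entered through their high libraries (Matn3, Comp and Cnmd) had to differ between libraries to pass, so these counts are descriptions only, and the contrasts that share a control or an OB library share its errors.

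An additive model of siRNA and state over all 4 libraries, which leaves 1 residual degree of freedom, gave a test over both factors. It treats any difference of the siRNA effect between the states as noise. It also rests on the library labelled siDNMT1_OB, without which it could not be fitted. In this edgeR quasi-likelihood fit with Benjamini-Hochberg adjustment, 12% of the filtered genes rose with OB induction and 9.09% fell. Of the members with a CPM of at least 1 in every library, Matn4 rose by 2.90 on the log2 scale (adjusted p = 0.00573), Matn2 by 2.27 (0.006) and Sox9 by 0.81 (0.0269). The members that passed the filter only through their high libraries had to differ, so their estimates are descriptions and support nothing further, at 5.36 for Cnmd (adjusted p = 0.00779), 2.20 for Comp (0.0186) and 1.45 for Matn3 (0.0613). For DNMT1 siRNA the same edgeR fit called 0% of genes higher and 0% lower, with 1148 genes at an unadjusted p under 0.05, and DESeq2 called 135 genes, Matn4 among them (1.24, adjusted p = 0.0213). Dnmt1 itself, the target of the siRNA, was at −0.45 in edgeR and −0.45 in DESeq2 and was called by neither. The edgeR estimates for the members were 1.21 for Matn4 (adjusted p = 0.259, and 0.000648 without the filter), 0.81 for Matn3 (0.71), 0.49 for Sox9 (0.47), 0.05 for Cnmd (0.996), −0.32 for Comp (0.882) and −0.50 for Matn2 (0.545).

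The DNMT1 siRNA effect on each member was then set against itself in the 2 states. The difference could be computed for 6 genes, over the same 4 libraries, and is a description: Matn3 and Comp passed the filter only through their high libraries and Sox6 did not pass it, so no count over the 6 can be read against the filtered genes. The difference of log2 fold changes, induced minus untreated, was −0.50 (−0.59 to −0.41) for Sox9, −0.66 (−0.77 to −0.56) for Matn2 and −0.71 (−1.26 to −0.22) for Matn4. It was −1.04 (−1.88 to −0.25) for Comp and −1.33 (−2.24 to −0.57) for Matn3. For Sox6 it was −3.84 with the prior count of 2 and −4.87 (−7.41 to −2.33) with 0.5 added to each count, so its size depends on the prior and on the 1 count in control. The intervals of all these differences belong to the estimate with 0.5 added to each count. For Sox9, Matn2 and Matn4, which had a CPM of at least 1 in every library, the effect was lower in induced than in untreated cells, as it was in 49.4% of all filtered genes, whose median difference was 0.00. Dnmt1 itself differed by 1.13 (1.03 to 1.24) in the opposite direction, since its level was not lower in the library labelled siDNMT1_OB, and the part of this in the members' differences was not tested.

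**Figure D5:**
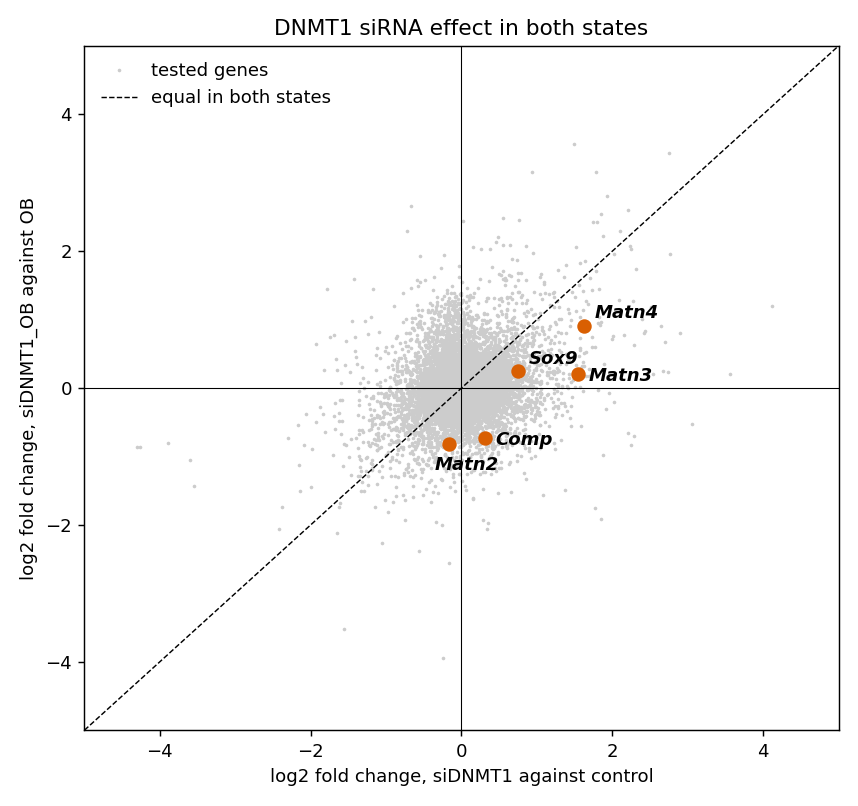
Log2 fold change with DNMT1 siRNA in untreated cells (x axis) against that in induced cells (y axis), with gray points for the filtered genes, orange points for 5 members and a dashed line where both effects are equal. Sox9, Matn2, Matn3, Matn4 and Comp lie below the dashed line, and Cnmd is not marked because both untreated libraries had at most 2 counts.

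Other cartilage genes were read from lists, each described by its counts past the fold. Filtered genes that were below 1 CPM in some libraries, such as Col10a1, Col9a2, Epyc, Adamts15 and Pth1r, passed the filter through their high libraries and had to differ, so the list counts are descriptions only. Among regulators of cartilage, 10 of 18 passed the filter. With DNMT1 siRNA in untreated cells 0 were higher and 1 lower (background 1.97% and 1.37%; Pth1r, a parathyroid hormone receptor, −1.07 from 29 and 12 counts), and in induced cells 1 was higher (Runx1, a RUNX transcription factor, 1.04) and 0 lower, where the background was 2.36% and 1.37%. OB induction with control siRNA had 0 higher and 1 lower (Runx1, −1.18) against a background of 10.6% and 7.1%. With DNMT1 siRNA it had 2 higher (Pth1r, 1.62, and Sox13, the remaining SOXD gene, 1.07) and 0 lower against 6.83% and 2.71%. Medians of the list lay between −0.10 and 0.18 against −0.0014 to 0.013 for all filtered genes.

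The cartilage collagens, among them the type II collagen gene that SOX9 activates, had 7 of 8 genes past the filter. With DNMT1 siRNA 4 were higher in untreated cells (median 1.36, background 1.97%), led by the hypertrophic collagen Col10a1 at 2.21, Col27a1 at 2.09 and Col11a2 at 1.42. Col9a2, at 1.36, was also past the fold and was itself the median. Its value came from 8 counts in siDNMT1 against 2 in control, which is under the floor of 3. In induced cells 4 were higher (median 1.28, background 2.36%), led by Col10a1 at 2.60, Col9a2 at 1.62 and Col2a1 at 1.32. With OB induction 5 were higher on control siRNA (median 1.82, background 10.6%), with Col9a2 at 26 counts against 2, Col11a1 at 2.74 and Col27a1 at 2.64. On DNMT1 siRNA 3 were higher (median 0.94, background 6.83%), with Col9a2 at 3.27 from 8 and 99 counts, Col11a1 at 2.01 and Col27a1 at 1.83. None was lower in any of the 4 contrasts, where 1.37%, 1.37%, 7.1% and 2.71% of the filtered genes were. Col2a1 had 10580 counts (control), 13440 (siDNMT1), 4675 (OB) and 13813 (siDNMT1_OB). Its log2 fold change in OB against control was −0.92, where that of Sox9 was 1.06, and in siDNMT1_OB against OB it was 1.32, where that of Sox9 was 0.25.

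Of 22 further non-collagen matrix genes, including relatives of the members, 7 passed the filter. DNMT1 siRNA had 2 higher in untreated cells (Tnmd, the tendon relative of Cnmd, 1.52, and Thbs3, of the Comp family, 1.03) and 2 in induced cells (Thbs1, 2.08, and Tnmd, 1.13). OB induction had 4 higher with either siRNA, with medians of 1.21 and 1.36 and backgrounds of 10.6% and 6.83%. The backgrounds of the siRNA contrasts were 1.97% and 2.36%. None was lower in any contrast, against 1.37% for either siRNA contrast and 7.1% and 2.71% for OB induction. Versican (Vcan), a hyaluronan-binding proteoglycan related to aggrecan, had OB log2 fold changes of 2.78 and 1.96, the largest of the 7 filtered genes, from 14679 counts (control), 13663 (siDNMT1), 84316 (OB) and 55358 (siDNMT1_OB). The small proteoglycan Epyc was at 2.02 and 1.48 and Tnmd at 1.95 and 1.56. Unlike Tnmd, with 36, 101, 121 and 316 counts, Cnmd was at 1 and 2 counts in the untreated libraries. The cartilage matrilin Matn1 had at most 2 counts in any library.

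Among enzymes of proteoglycan synthesis and turnover, 18 of 20 passed the filter. DNMT1 siRNA had 1 higher (Chst3, a chondroitin sulfotransferase, 1.01) and 1 lower (Has1, a hyaluronan synthase, −1.05) in untreated cells, and Chst3 (1.02) against Has1 (−1.13) and Adamts15 (−1.05) in induced cells, where the backgrounds were 1.97% higher and 1.37% lower, and 2.36% and 1.37%. OB induction had 5 higher and 0 lower with either siRNA, against backgrounds of 10.6% and 6.83% higher and 7.1% and 2.71% lower, led by the proteoglycan-cleaving protease Adamts15 at 4.54 and 3.84. The aggrecanase Adamts4 was at 2.21 and Adamts9 at 2.04 on control siRNA, and the sulfotransferase Chst11 at 1.68 and Adamts9 at 1.64 on DNMT1 siRNA. The list's medians lay between −0.02 and 0.24.

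The tested genes whose profile over the 4 libraries lay nearest to that of Sox9, by Euclidean distance of centred log2 CPM, were Gm43672, Myzap, Ifi35, Rps6ka5 and Rtn4rl2, at distances of 0.086 to 0.10. Ifi35, the most abundant of them, had 439, 638, 724 and 990 counts. Of the members, Matn3 was the closest at 0.88 (place 3997 of 13232), and Comp, Matn2, Matn4 and Cnmd stood at places 11181, 12022, 12671 and 13157.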

How the data were processed

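Poly(A) RNA of C3H10T1/2 cells was sequenced in 4 libraries, 1 per group, grouped by their titles. The authors deposited raw counts per gene with gene symbols, positions and exon lengths. Per the study's methods and the submitters' processing notes, TruSeq v2 libraries were sequenced from both ends, trimmed with Trimmomatic, aligned with HISAT2 (mm10) and counted with featureCounts. For the RNA libraries, versions, strand use and the treatment of reads with several positions are not given in the sources used here.

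The 10 genes, the lists and the comparisons were chosen with earlier results of these data known. Of the deposited positions, 98.3% matched GENCODE M21. TMM factors (edgeR 4.0.16, R 4.3.3) were computed over the filtered genes (mean CPM of 1 or more) and lay between 0.991 and 1.01. Log2 fold changes used a prior count of 2, and a size of at least 1 counted as past the fold. That is the fold part of the study's criterion; its significance part was not applied, since a group of 1 library allows no test of a contrast. Counting intervals are 95% Clopper-Pearson (exact) intervals of the plain ratio, and those of differences between log2 fold changes are normal approximations. Without molecular identifiers, intervals and the floor of 3 counts (0.111 to 0.133 CPM) cover counting error only. The additive model was fitted with the edgeR quasi-likelihood test and, as an alternative, DESeq2 1.42.0, after the scripts had been tested on simulated data. Other scalings, prior counts and filters were tried. The named genes are the 10 members, Dnmt1, at most 3 genes per list and comparison past the fold and furthest from 0, and the 5 genes nearest to Sox9. Col2a1 in OB against control, Vcan and Tnmd counts, Matn1 and the marker genes were named outside that rule, after their values were seen. So was Col9a2 in siDNMT1 against control. Rbpjl, 9430069I07Rik and Sox5os1 were also named outside it, as genes that share exon bases with a member.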

Additional observations from a re-analysis of the deposited data

Results flagged for a closer look

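The siDNMT1 effect on Sox6 differed between the states, with a difference of log2 fold changes (induced minus untreated) of −3.84, and the same value of −3.84 separates the OB effects with DNMT1 and with control siRNA because both come from the same 4 counts (1, 28, 21 and 17). The siDNMT1 effect on Comp had opposite signs in the 2 states, with a difference of −1.04. Each group held 1 library, so neither difference was tested, and the Comp effect in untreated cells was within counting error.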

How the results depend on the processing

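Under 6 other settings (total count, upper quartile and DESeq2 scaling, prior counts of 0.5 and 5, and TMM factors over all genes, the last chosen after seeing the data), 180 member values were recomputed and none reversed or moved by more than its counting interval. No scaling moved the median of the filtered genes by more than 0.05 on the log2 scale. A mean CPM of at least 5 left out Matn3, Comp and Cnmd. It lowered the number of members past the fold to 1 for siDNMT1 against control, 3 for OB against control and 2 for siDNMT1_OB against siDNMT1. Of the genes kept, 1.02%, 7.62% and 4.7% were higher in those contrasts. The number of members called for OB induction by the additive edgeR fit fell from 5 to 3, since Comp and Cnmd were left out. Sox9, Matn2 and Matn4 stayed called. Over all genes kept, that fit called 2129 of 10827 for OB induction, against 2786 of 13233 with the filter at a mean CPM of 1. Without a filter, and with a CPM of at least 1 in at least 1 library (chosen after seeing the data), Sox5 or Sox6 added to the members past the fold, which then numbered 3 for siDNMT1 against control, 8 for OB against control and 5 for siDNMT1_OB against siDNMT1. The genes higher were then 2.53%, 7.48% and 4.68% without a filter and 2.6%, 12.5% and 8.28% with the other. For the siDNMT1 effect the additive fit called 1 member, Matn4, without an expression filter (edgeR, 1.21, adjusted p = 0.000648) and 1, again Matn4, with DESeq2 (1.24, adjusted p = 0.0213), and its adjusted p was 0.131 to 0.312 under the other edgeR settings; the cause was not tested. Matn3 was called for OB induction with total count scaling (1.46, edgeR adjusted p = 0.0394), upper quartile scaling (1.48, 0.0379) and no filter (1.45, 0.00084), but not with DESeq2 (0.0575). For OB induction, 3358 of 13233 genes were called with total count, 3346 with upper quartile and 2786 with TMM scaling, and 2441 with DESeq2. Without a filter Sox5 was also called for OB induction (5.40, edgeR adjusted p = 2.31e-05), which brought the members called to 7. That fit called 4433 of 27380 genes for OB induction. Over all genes the siDNMT1 effect called 28 genes with total count and 28 with upper quartile scaling, 433 without a filter and 0 at a mean CPM of at least 5. With 1 library per group no library could be left out, and no paired analysis was possible because no group has a second replicate. The depth limits Sox5, Sox6, Acan and Hapln1, whose counts were at most 31.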
